A study of Mus musculus with 2 samples.

Results

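The spots described here are the 120 spots, of 3398 under tissue, that were richest in 4 genes of tendon and dense fibrous tissue in Visium sections of healing mouse femora. Visium counts RNA molecules by their unique molecular identifiers (UMIs) on a fixed grid of barcoded spots, and each spot is a small region that can hold several cells. Members were chosen by their own counts: in each section, spots outside the bone region whose barcodes the authors listed, with at least 500 UMIs and fewer than 10 UMIs of *Col2a1* plus *Col9a1* (cartilage collagens), were ranked by the share of *Tnmd*, *Fmod*, *Comp* and *Thbs4* in their UMIs, and the 60 highest were kept. The data comprised 1 Control section and 1 Loaded section, each from a female bone cell reporter (BCR) mouse, in which eGFP marks *Ibsp* and mCherry marks *Acp5*. Both mice had a femoral osteotomy held by an external fixator at 12 weeks of age and were euthanized at 17 weeks. From week 3 to week 5 after surgery, 3 times per week, the Loaded femur received cyclic loading through the fixator and the Control femur received sham-loading. With 1 mouse per group, differences between the sections cannot be told apart from differences between mice, spots are not replicates, and no test was run. Intervals are 95% intervals for counting error only.

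Tendon and ligament consist mainly of parallel type I collagen fibrils made by fibroblasts called tenocytes, whose identity is set by the transcription factors scleraxis (*Scx*) and Mohawk (*Mkx*). Fibril diameter and spacing are tuned by type V, XI, XII and XIV collagens, by small leucine-rich proteoglycans such as fibromodulin (*Fmod*) and by thrombospondins such as *Comp* and *Thbs4*. Where tendon or ligament meets bone it becomes a fibrocartilage that shares many matrix genes with cartilage, and where it meets muscle it forms the myotendinous junction, which carries type XXII collagen.

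The rule found members at different places in the sections. In the Control section 1713 spots passed the filters, after 131 bone region spots, 64 spots under the UMI limit and 54 cartilage spots were left out, and 51 of the 60 members lay within 10 spot spacings of a cartilage spot, against 537 of 1653 other spots. The largest patch of neighboring Control members held 38 spots, and 7 members lay on the outermost row of the capture grid. In the Loaded section 1285 spots passed, no spot reached the cartilage limit, and the members formed 24 patches of which the largest held 9 spots and 12 were single spots. Of the Loaded members 22 lay within 3 spot spacings of the bone region, and their median distance from it was 7.11 spacings, beside 6.08 for the other spots. Only 7 Control members, but 28 Loaded members, lay level with the bone region along its axis. The Control members thus came mostly from beside cartilage, which the Loaded section does not show, and loading and anatomical place cannot be told apart in any comparison of the members as chosen. The sections share 557 barcodes under tissue because all slides carry the same grid of barcodes, and no barcode was a member in both.

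**Figure D1:**
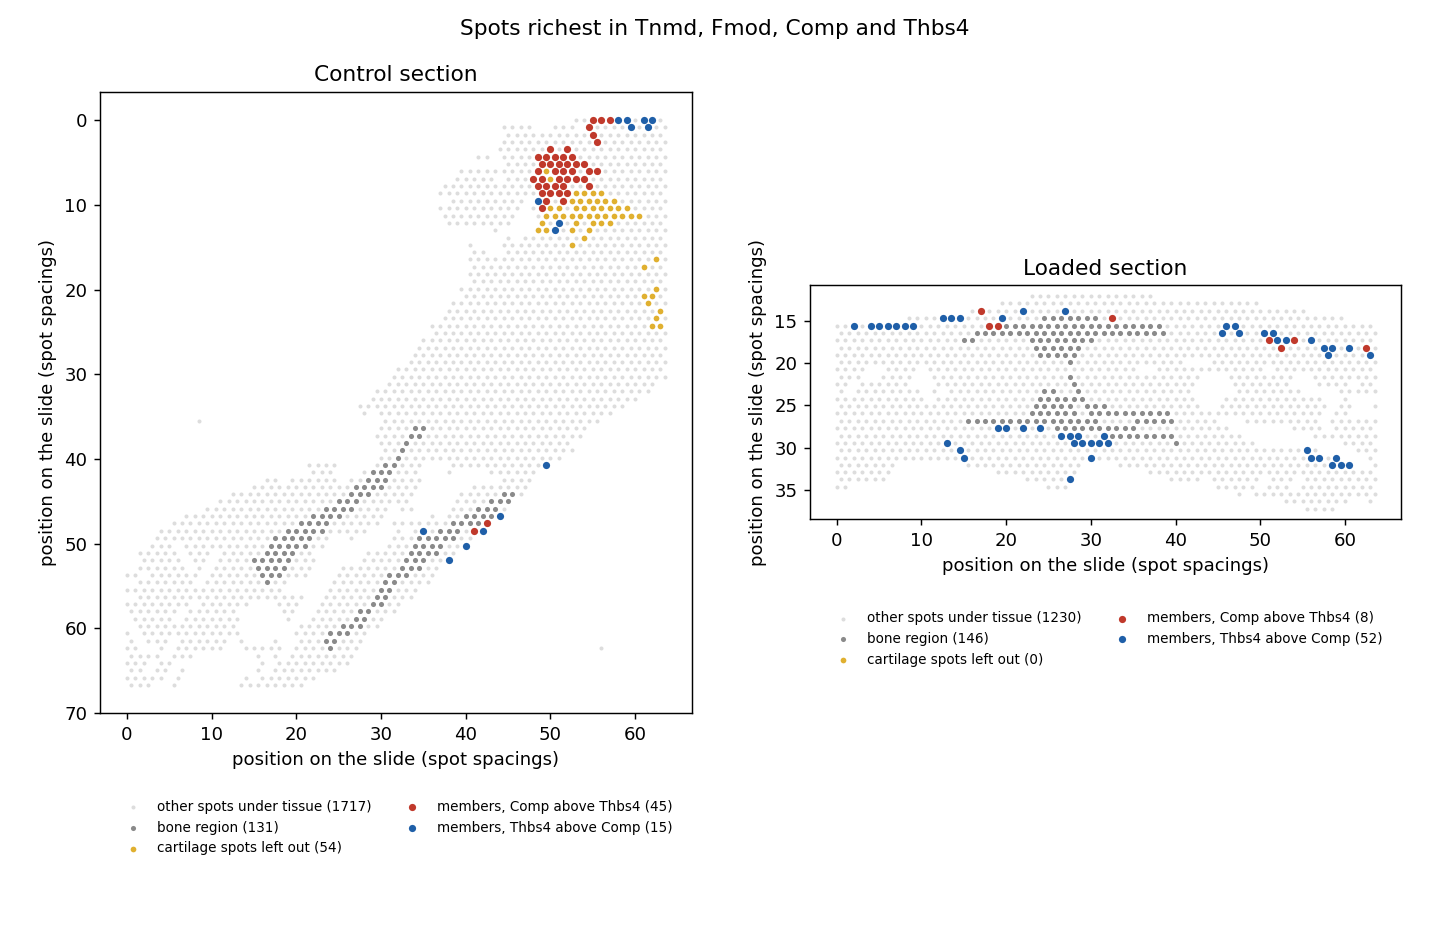
Position of every spot under tissue on the slide, in spot spacings on both axes, with members in red (more *Comp* than *Thbs4*) or blue (more *Thbs4* than *Comp*), the bone region in dark gray and cartilage spots in yellow. In the Control section 45 of 60 members are red and most of them sit beside the cartilage spots; in the Loaded section 52 of 60 are blue, and 18 of these 52 lie within 3 spot spacings of the bone region.

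Depth differed in opposite directions. Control members held a median of 1438 UMIs per spot (lowest 571, highest 11265), below the 2263 of the other Control spots, whereas Loaded members held 5101 (lowest 644, highest 11705), above the 2595 of the other Loaded spots. Members summed to 124901 UMIs of the 9002147 in the Control section and to 305389 of the 4910716 in the Loaded section. Sums of UMIs were therefore divided by the summed scran size factors of the same spots, 42.6 for Control and 105.0 for Loaded members, which gives normalized counts per average spot.

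The 4 genes that chose the members took 1.85% (95% interval 1.77 to 1.93) of the UMIs of Control members and 0.804% (0.773 to 0.837) of those of Loaded members, against 0.0962% and 0.0943% in the other spots. These shares describe the selection and support nothing. The highest member had 4.04% in the Control section (29 of 718 UMIs) and 2.43% in the Loaded section (203 of 8348 UMIs). At the limit, the last Control member had 1.179% (10 of 848 UMIs) and the next spot 1.172% (28 of 2390), and the last Loaded member had 0.4578% (29 of 6335 UMIs) and the next spot 0.4547% (25 of 5498). Only 6 Loaded spots reached the share of the last Control member, whereas 198 Control spots reached that of the last Loaded member, so equal numbers of members stood for unequal limits.

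*Comp* (chromosome 8, 70373558 to 70382066 of GRCm38, plus strand), the pentameric thrombospondin of tendon, ligament and cartilage, was the leading gene of the Control members with 1199 UMIs, against 504 in Loaded members. Its normalized count per Control member ranged from 0 to 116 with a median of 34.5, and per Loaded member from 0 to 13.8 with a median of 4.46. *Thbs4* (chromosome 13, 92751590 to 92794818, minus strand), the thrombospondin of tendon and muscle matrix, led the Loaded members with 1474 UMIs against 832 in Control members. Its median normalized count was 11.3 per Control member (0 to 49.3) and 13.2 per Loaded member (1.77 to 42.8). The ranges of *Thbs4* overlapped almost completely, and those of *Comp* overlapped only in their lower part. *Fmod* (chromosome 1, 134037254 to 134048277, plus strand), the collagen-binding proteoglycan fibromodulin, had 265 UMIs in 49 Control members and 413 UMIs in 57 Loaded members, with medians of 5.20 and 3.62.

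*Tnmd* (chromosome X, 133850980 to 133865577, plus strand), the membrane protein tenomodulin that defines mature tenocytes, was sparse. It had 13 UMIs in 8 of 60 Control members and 65 UMIs in 30 of 60 Loaded members. Within the Control section, 11 of the 13 UMIs fell in 6 of the 7 members level with the bone region and 2 in the 51 members near cartilage. This is a log2 ratio of 3.91 (1.72 to 7.13) per normalized count, and the level near cartilage, 0.0659, was close to that of the other Control spots, 0.0426. In the Loaded section *Tnmd* did not differ between places beyond counting error, with 28 UMIs in 28 members level with the bone region and 37 in the 32 members beyond it (log2 -0.25, -1.02 to 0.49). *Scx* had 13 UMIs in 7 Control members and 29 in 19 Loaded members, which is 0.305 and 0.276 normalized counts per spot. *Mkx* had 9 and 8 UMIs, or 0.211 and 0.0762 per spot, and the proteoglycan gene *Kera* 1 and 3 UMIs. Near cartilage in the Control section *Scx* stood at 0.297 and *Mkx* at 0.132, on 9 and 4 UMIs, above the 0.0968 and 0.0227 of the other Control spots. The markers thus differed for most Control members, with *Tnmd* near the level of the other spots and *Scx* and *Mkx* above it, and the spots are called here by their rule and their leading genes, *Comp* in Control and *Thbs4* in Loaded.

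Each of the 120 members could be assigned by the larger of *Comp* and *Thbs4*, with no ties. Of the Control members 45 held more *Comp* and 15 more *Thbs4*, and of the Loaded members 8 held more *Comp* and 52 more *Thbs4*. Among Control members near cartilage *Comp* was higher and *Thbs4* lower than in the 7 members level with the bone region, at log2 -0.91 (-1.14 to -0.68) and 0.76 (0.55 to 0.97) for bone level over near cartilage. Spearman's rho between the shares of *Comp* and *Thbs4* was -0.57 over the 60 Control members and -0.23 over the 60 Loaded members, and that of *Fmod* with *Thbs4* was 0.60 and 0.51. These are descriptions, because the spots were ranked on the sum of these shares and share a library.

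**Figure D2:**
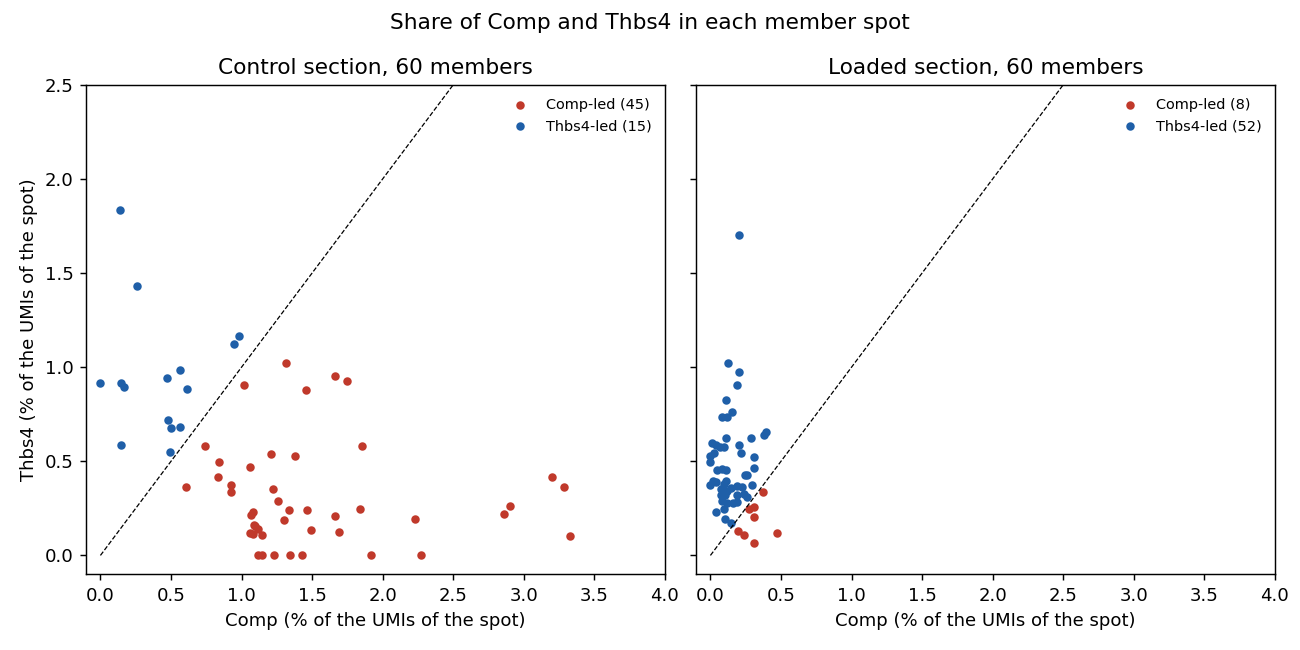
Share of *Comp* (x axis) and *Thbs4* (y axis) in the UMIs of each member spot, in percent, for the 60 Control members and the 60 Loaded members; the dashed line marks equal shares. Control members spread far along the *Comp* axis, whereas 52 of 60 Loaded members lie above the line at low *Comp*.

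The members were then set against the other spots that passed the filters in the same section. Since the members were selected on the same counts, this contrast describes them and tests nothing. Of 10221 genes with at least 20 UMIs in each section, 333 (3.26%) were at least 2-fold higher in members in both sections and 461 (4.51%) at least 2-fold lower in both. The median log2 ratio over all these genes was -0.12 in the Control and -0.18 in the Loaded section. With library totals in place of scran factors it was higher by 0.71 and 0.35, which turned the split of called genes from 41.9% higher (333 higher, 461 lower) to 89.3% higher (897 higher, 108 lower), so values near 0 have no firm direction.

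Tendon genes that had no part in the rule were high in the members of both sections. All 9 of the 10 listed genes that had enough UMIs were at least 2-fold higher in both, with a median log2 ratio of 3.54 in Control and 2.03 in Loaded. The highest in Control was *Chad* (chondroadherin, a leucine-rich matrix protein that binds collagen and integrins), with 375 UMIs in 56 of 60 members and a log2 ratio of 4.92, against 63 UMIs in 23 of 60 Loaded members and 2.46. *Cilp2*, a cartilage intermediate layer protein, stood at 4.29 (3.95 to 4.62) and 2.97 (2.41 to 3.52). *Angptl7*, a secreted angiopoietin-like protein, stood at 3.76 (3.53 to 3.98) and 2.97 (2.56 to 3.38). *Prelp*, a proline- and arginine-rich proteoglycan that anchors basement membranes to collagen, stood at 3.54 and 2.03. The transcription factors were less far apart from the other spots, with *Mkx* at 3.22 and 1.98 and *Scx* at 1.66 and 1.39, and the glycoprotein gene *Tnc* (tenascin C) at 1.36 and 1.03.

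The collagens followed in smaller steps. Of 9 fibrillar collagen genes with enough UMIs, 5 were at least 2-fold higher in both sections (*Col1a1*, *Col3a1*, *Col5a1*, *Col5a2* and *Col11a1*), with a median of 1.89 in Control and 1.27 in Loaded. *Col1a1*, the main chain of type I collagen, had 1419 UMIs in Control members (log2 2.17) and 3008 in Loaded members (log2 1.27). *Col1a2*, the second chain of the same protein and the most abundant collagen transcript, was higher by log2 1.56 in Control and 0.88 in Loaded, and so missed the 2-fold limit in the latter. All 8 fibril-associated and type VI collagen genes were at least 2-fold higher in both (7 with TMM factors), with medians of 2.02 and 1.46. *Col12a1*, which sits on the surface of type I fibrils, stood at 2.75 and 1.64, and *Col6a2*, part of the pericellular network around tenocytes, at 2.26 and 1.59. *Col22a1*, of the myotendinous junction, stood at 2.20 and 2.32 with 29 and 61 UMIs, while the other 3 measured genes of that junction, *Ankrd1*, *Itga7* and *Xirp1*, were not 2-fold higher in both.

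Genes that organize and crosslink the fibrils were also high. Of 8 small leucine-rich proteoglycans outside the rule, 6 were at least 2-fold higher in both sections, among them decorin (*Dcn*, log2 1.85 and 1.19), biglycan (*Bgn*, 1.92 and 1.48) and asporin (*Aspn*, 2.22 and 1.81). Of 17 collagen processing genes, 6 passed that limit in both (10 with library totals), namely the crosslinking oxidases *Lox*, *Loxl1*, *Loxl2* and *Loxl3*, the procollagen C-proteinase enhancer *Pcolce* and the collagen chaperone *Serpinh1*. Of 17 matricellular genes 10 passed it (12 with library totals, 9 with TMM factors). The most abundant was *Mgp*, the matrix Gla protein that inhibits calcification, with 733 UMIs in Control members (log2 2.15) and 2008 in Loaded members (2.07), and next came *Sparc*, a collagen-binding glycoprotein gene, with 596 and 986 UMIs. *Ccn3* (2.47 and 2.30) and *Ccn2* (2.19 and 2.07), secreted regulators of the CCN family, had ratios of similar size. Of 16 microfibril and elastic fiber genes 6 passed it (12 with library totals, 7 with TMM factors), including *Fbn1* (fibrillin 1) at 1.49 and 1.19 and *Ltbp2*, a latent TGF-beta binding protein, at 2.44 and 1.54. The highest genes in both sections by the smaller of both ratios also included *Angptl1* (2.39 and 2.17), *Fibin* (2.43 and 1.99), *Thbs1* (a matricellular thrombospondin, 2.29 and 1.84), *Serpinf1* (pigment epithelium-derived factor, 2.37 and 1.80) and *Itgbl1* (2.57 and 1.78).

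**Figure D3:**
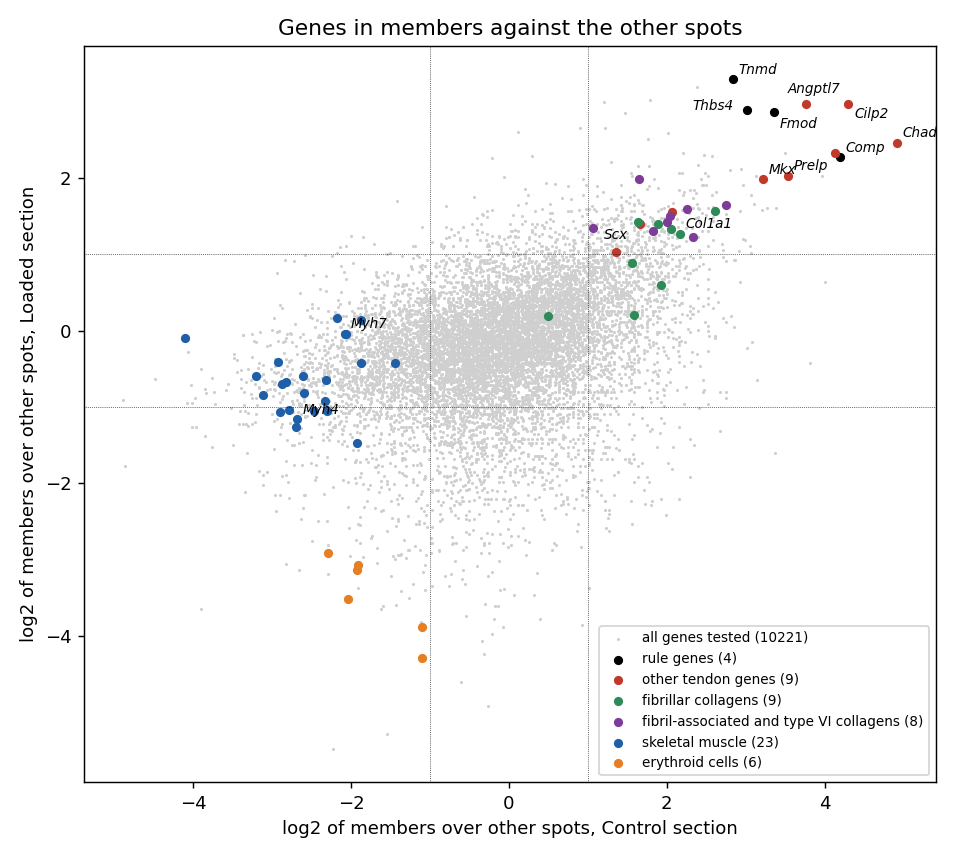
Log2 ratio of members over the other spots for each of 10221 genes, in the Control section (x axis) and the Loaded section (y axis), with 6 gene lists in color; dotted lines mark the 2-fold limits. The 4 rule genes and the 9 other tendon genes lie at the upper right, type I, III, V and XI collagens near them, muscle genes at the left and erythroid genes at the bottom.

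Genes of blood were low relative to the other spots, and muscle genes were low mainly in the Control section. All 6 measured erythroid genes were at least 2-fold lower in members of both sections (medians -1.91 in Control and -3.33 in Loaded), as were 5 of 8 granulocyte genes (-1.29 and -3.65). With library totals these counts were 4 of 6 and 2 of 8. *S100a8*, the neutrophil calprotectin subunit, had 1 UMI in Control members against 599 in the other spots and 14 in Loaded members against 1898. *Prtn3* and *Wfdc21* of granulocytes, the cell cycle gene *Cdca3* and *Ttll7* (a tubulin-modifying enzyme) were also among the 6 lowest genes, with 1 to 3 UMIs each in Control members and 2 to 10 in Loaded members. Of 23 skeletal muscle genes, none was higher and 7 were at least 2-fold lower in both sections, or 1 with library totals and 3 with TMM factors. Their median log2 ratio was -2.60 in Control and -0.67 in Loaded. The summed share of these 23 genes was 7.71% (7.56 to 7.86) in Control members and 12.7% (12.5 to 12.8) in Loaded members, against 29.3% and 18.5% in the other spots, so contractile transcripts were present in every set of spots. Per spot, the median muscle share was 8.04% in Control members against 13.7% in the other spots, but 12.3% in Loaded members against 10.6%. The most abundant of them was *Myh4*, fast myosin, in Control members (1813 UMIs) and *Acta1*, skeletal actin, in Loaded members (5938 UMIs), and no gene of the list was at 0 in either. Of the 4 synovial lining genes measured, *Prg4* and *Htra4* were 2-fold higher in both, on 7 and 6 UMIs for *Prg4*. Only *Pdgfra* of the 9 loose connective tissue fibroblast genes was. None of the 9 endothelial or 7 macrophage genes measured was 2-fold higher or lower in both sections, except for 1 macrophage gene that was higher with library totals. Over all genes 3.26% were higher and 4.51% lower in both sections, so a count of 0 in these short lists is unremarkable.

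**Figure D4:**
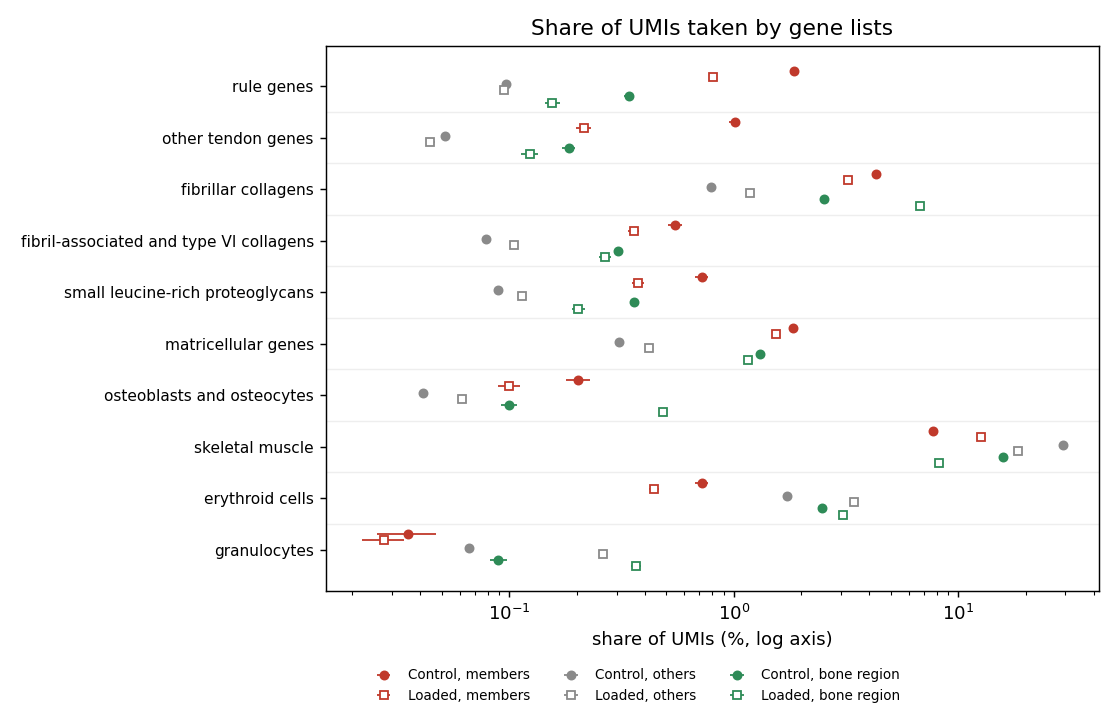
Share of UMIs (percent, log axis) taken by 10 gene lists in members (red), other spots (gray) and the bone region (green) of the Control (filled circles) and Loaded (open squares) sections, with exact binomial 95% intervals. Members are highest for other tendon genes (1.01% and 0.214%), and in the Loaded section the bone region is highest for fibrillar collagens (6.75%).

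Cartilage and bone express many of the same matrix genes. The 54 Control cartilage spots, left out by the rule, held *Comp* at 16.1 normalized counts per spot, *Chad* at 4.48 and *Col1a1* at 30.5, against 28.1, 8.80 and 33.3 in the Control members. They held more *Col1a2* (142.8 against 66.3), *Scx* (0.529 against 0.305), *Col22a1* (1.55 against 0.681) and *Bglap* (4.09 against 1.88) than the Control members. *Col2a1*, the collagen of cartilage, stood at 52.2 in the cartilage spots, a level fixed by the filter, at 2.14 in the Control members and at 0.0571 in the Loaded members. Of the 10 further cartilage genes, Control members held 50 UMIs in all, led by *Acan* (aggrecan, 17 UMIs), with *Col10a1* and *Matn1* at 0, and Loaded members held 21 UMIs, led by *Sox9* (8 UMIs), with *Col10a1*, *Col9a3* and *Matn1* at 0. Genes of bone were unequally spread too. The osteoblast and osteocyte list had a median log2 ratio of 1.76 in Control members and -0.27 in Loaded members (0.07 with library totals), and took 0.203% and 0.0996% of their UMIs, against 0.0996% and 0.484% in the bone regions.

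Within the Control section *Bglap*, *Sost*, *Dmp1*, *Ibsp* and *Alpl* were higher near cartilage than at bone level beyond counting error. So were genes outside the bone list, such as *Comp*, *Angptl7*, *Cfd* and *Col22a1*, and the share of all genes that differed this way was not computed. *Bglap* (osteocalcin of osteoblasts) had 80 UMIs in 30 of the 51 members near cartilage and 0 in the 7 members level with the bone region. Its log2 ratio of bone level over near cartilage had an upper 95% limit of -2.95. *Sost*, the osteocyte gene of sclerostin, had 38 and 0, and *Dmp1*, also of osteocytes, 32 and 1. *Ibsp* (bone sialoprotein) had 36 and 3 and *Alpl* (alkaline phosphatase) 25 and 0, whereas *Runx2*, with 16 and 3, was within counting error of equal (log2 of bone level over near cartilage -0.96, -3.38 to 0.84), and *Sp7*, *Phex* and *Mepe* had 3 UMIs or fewer in either place. The 7 members level with the bone region instead held more *Mgp* (42.3 against 7.22 normalized counts, log2 2.55, 2.32 to 2.79), *Ccn3* (log2 2.0, 1.17 to 2.85), *Postn* (periostin, log2 2.08, 0.90 to 3.32), *Col12a1* (log2 1.74, 0.97 to 2.53) and *Pi16*, a marker of adventitial fibroblasts (33 UMIs against 5, log2 4.18, 2.81 to 5.89). *Chad* did not differ between the places beyond counting error (8.31 and 9.0, log2 -0.11, -0.47 to 0.23), nor did *Cilp2* (-0.23, -0.91 to 0.40) or *Dcn* (-0.22, -0.72 to 0.26). *Clec3a*, a cartilage lectin, had 84 of its 85 UMIs near cartilage, whereas aggrecan (*Acan*) was higher at bone level (9 UMIs against 7, log2 1.82, 0.22 to 3.48), and *Angptl7* was lower at bone level (1.36 against 6.39). Muscle differed in type, since near cartilage fast *Myh4* was high (58.1) and slow *Myh7* nearly missing (0.132), and at bone level both were low (3.61 and 3.34).

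The Loaded members varied along the bone as well. The 28 members level with the bone region held more *Col1a1* (35.6 against 22.3, log2 0.67, 0.57 to 0.78), *Col1a2* (log2 0.68, 0.59 to 0.77) and *Bglap* (140 UMIs against 32, log2 2.28, 1.72 to 2.88) than the 32 members beyond it. They held less *Chad* (9 UMIs against 54, log2 -2.44, -3.64 to -1.41), *Angptl7* (log2 -1.41, -2.18 to -0.70), *Mgp* (log2 -0.90, -1.04 to -0.77) and *Col12a1* (log2 -0.81, -1.43 to -0.21). *Fmod* was within counting error of equal in these places (log2 0.06, -0.23 to 0.34), as were *Dcn* (0.05, -0.27 to 0.36), *Postn* (-0.01, -0.59 to 0.56) and *Scx* (0.65, -0.50 to 1.85). Muscle again differed in type, with *Myh4* at 78.2 level with the bone region and 9.62 beyond it, and *Myh7* at 9.0 and 20.4. The split by leading gene gave 1056 genes with enough UMIs in both sections, of which 4 were at least 2-fold higher with *Comp* in both (0.379%; *Bglap*, *Tcf7l1*, *Col11a1* and *Ecrg4*) and 17 (1.61%) with *Thbs4*. The 17 include *Thbs4* itself, which defined the split, and *Pi16* (log2 of *Comp*-led over *Thbs4*-led members -3.03 in Control and -1.41 in Loaded). *Bglap* had 78 of its 80 UMIs in the *Comp*-led Control members. These genes were picked after their values were seen.

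Loaded members were then compared with Control members. Of 4471 genes with at least 20 UMIs over the 120 members, 517 (11.6%) were at least 2-fold higher and 343 (7.67%) at least 2-fold lower in Loaded members, around a median log2 ratio of 0.02. With TMM factors the median was higher by 0.24 and the split of called genes went from 60.1% higher to 81.1% higher (769 higher, 179 lower). To show the variation within sections, the members were divided into 4 blocks of 15 along the bone. All 4 Loaded blocks lay above all 4 Control blocks for 209 genes (4.67%) and below them for 164 genes (3.67%). In bulk sums of spots, fewer cells of a type and less RNA per cell cannot be told apart.

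Among the rule genes, *Comp* was lower in Loaded members (4.80 against 28.1 normalized counts, log2 -2.55, -2.70 to -2.40). *Fmod* was lower by less than 2-fold (log2 -0.66, -0.89 to -0.43), as was *Thbs4* (-0.48, -0.60 to -0.35), and *Tnmd* was higher (1.02, 0.15 to 2.0). In the other spots of the same sections these ratios were -0.62, -0.16, -0.36 and 0.58. Of 8 other tendon genes with enough UMIs, 5 were at least 2-fold lower, none higher, and in 4 all Loaded blocks lay below all Control blocks, against 7.67% and 3.67% of all genes. Their median was -2.14, beside -0.48 for the same genes in the other spots. It was less negative in several other selections, among them the spots level with the bone region, as given with the dependence on processing. The 5 were *Chad* (63 UMIs against 375, log2 -3.87, -4.28 to -3.49), *Angptl7* (-2.60, -2.98 to -2.23), *Cilp2* (-2.49, -3.00 to -2.0), *Prelp* (-2.31, -2.57 to -2.05) and *Ecrg4* (-1.97, -2.69 to -1.27), a secreted peptide precursor. *Scx* stood at -0.14 (-1.13 to 0.92) and *Tnc* at -0.09 (-0.71 to 0.57), within counting error of no difference.

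The 4 Control blocks of *Chad* held 5.92, 21.4, 10.4 and 5.29 normalized counts per spot and the 4 Loaded blocks 0.931, 0.0828, 0.325 and 0.846, without overlap. Further genes were also among the lowest in all Loaded blocks. *Clec3a* had 85 UMIs in Control members and 0 in Loaded members. With that 0 set to 3 UMIs to give a bound, its log2 ratio was at most -6.13. It was also rare in the rest of the Loaded section, with 141 UMIs in the other Control spots and 3 in the other Loaded spots (log2 -4.96). *Col2a1*, used by the filter, had 91 and 6 UMIs. The axon guidance gene *Ntn1* (netrin 1) stood at -3.16 (-3.88 to -2.49), *Clu* (clusterin, an extracellular chaperone) at -2.89, *Cfd* (adipsin, of adipocytes) at -2.62, *Aff3* at -2.42 and the annexin *Anxa8* at -2.39. Adipocyte genes took 0.169% of Control and 0.0507% of Loaded member UMIs, with no gene of that list at 0, and 0.159% and 0.0876% of the UMIs of the other spots. The part of cartilage, fat and bone in the lower values was not tested.

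Most collagens and collagen processing genes differed by less than 2-fold between the sections. Of 16 collagen processing genes 3 were at least 2-fold lower in Loaded members (*Adamts2*, *Lox* and *Serpinh1*) and 1 higher (*P4ha1*), against 7.67% and 11.6% of all genes. With TMM factors 2 of the 16 were lower. Of 9 fibrillar collagen genes 3 were at least 2-fold lower in Loaded members (*Col5a1*, *Col5a3* and *Col27a1*) and none higher, with a median of -0.68 beside 0.08 in the other spots. With TMM factors 1 of the 9 was lower. *Col1a1* stood at -0.22 (-0.31 to -0.13), *Col1a2* at -0.68 (-0.75 to -0.61) and *Col3a1*, of pliable fibrils, at 0.26 (0.12 to 0.39). Of 8 fibril-associated and type VI collagens *Col14a1* was higher (1.11, 0.33 to 1.98) and *Col6a1* and *Col16a1* lower (-1.05 and -1.18), neither of them past 2-fold with TMM factors. Of 16 matricellular genes *Ccn2*, connective tissue growth factor, was lower (150 UMIs against 206, log2 -1.76, -2.07 to -1.45) with no overlap of blocks, but it was nearly as low in the other spots of the Loaded section (-1.63). *Tgfbi*, a TGF-beta-induced adhesion protein, was also lower (-1.98), and *Mgp* was close to equal (0.15, 0.03 to 0.28). Of 10 TGF-beta ligands, receptors and targets 1 was past 2-fold, *Tgfbr3*, a coreceptor (-1.38). Of 10 immediate early genes 1 was past it, *Fos* (-1.41, on 14 and 13 UMIs). Over all genes 7.67% were lower and 11.6% higher, so these counts do not set either list apart. Of the 6 osteoblast and osteocyte genes measured 4 were lower, *Alpl* (-1.86), *Dmp1* (-2.89), *Runx2* (-1.24) and *Sost* (-3.26), against 7.67% of all genes, and *Bglap* stood at -0.20. The median of the list was -1.55, beside 0.07 in the other spots.

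Many skeletal muscle genes were higher in Loaded members. Of 23, 12 were at least 2-fold higher and none lower, against 11.6% of all genes, with a median of 1.04 beside -0.70 in the other spots. Among the largest differences were those of slow-twitch genes, namely myosin light chain *Myl2* (252 UMIs against 2, log2 5.68, 3.81 to 8.73), troponin I *Tnni1* (525 UMIs against 13, log2 4.03, 3.25 to 4.95), troponin T *Tnnt1* (3.81) and myosin *Myh7* (3.83). Fast *Myh4* was within counting error of equal (-0.01, -0.09 to 0.07). The Z-disc genes *Actn2* (450 UMIs against 13, log2 3.81, 3.02 to 4.73) and *Myot* (3.22) and the stress-responsive *Ankrd2*, with 74 UMIs against 0 and a log2 ratio of at least 3.32, lay among the 12 highest genes without block overlap. Respiratory chain genes *Cox6c* (2.76), *Atp5l* (2.48) and *Sdhd* (2.26), the sodium pump subunit *Atp1b1* (2.47), *Fxr1* (2.96), *Art1* (2.20) and *3425401B19Rik* (2.43) were also among them. The share of muscle in the UMIs, 7.71% in Control and 12.7% in Loaded members, moved with these values. Among the 42 Control and 23 Loaded members with a muscle share below 10%, *Tnni1* stood at 3.49 and *Actn2* at 3.24. Ranked without *Comp*, the members gave 0.54 and 1.49, and with at least 1000 UMIs per spot 1.49 and 2.17. *Myh7* and *Tnni1* were also higher in the other Loaded spots (1.79 and 1.68).

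Because the places differed, the ranking was repeated, after the values were seen, over spots level with the bone region only, which are 542 Control and 613 Loaded spots that passed the filters. The 60 highest of each included 7 and 28 of the former members, and their median depths were closer, 3392 and 4794 UMIs. On these spots 109 of the 517 genes remained at least 2-fold higher in Loaded, which is 21.1% of the 517 and 25.7% of the 424 genes called among them, and 60 of the 343 remained lower, which is 17.5% of these and 19.5% of the 308 called. Of the 517 genes 500, and of the 343 genes 320, had enough UMIs to be tested on these spots. Over all 5639 genes tested on these spots 7.52% were called higher and 5.46% lower. *Comp* then stood at -0.42, *Thbs4* at -0.54 (-0.66 to -0.42), *Fmod* at 0.07 and *Tnmd* at 0.35, so that no rule gene differed by 2-fold. *Col1a1* (-0.08), *Col1a2* (0.03) and *Col3a1* (-0.18) were nearly equal in the sections. The 3 fibrillar collagens that had been lower no longer reached 2-fold (*Col5a1* -0.48, *Col5a3* 0.30 and *Col27a1* 0.43), nor did *Col14a1* (-0.03), *Col6a1* (-0.70), *Col16a1* (-0.51), *Tgfbr3* (-0.25) and *Fos* (0.20), and *Tgfbi* stood at 0.98 (-0.11 to 2.17). *Lox* (-0.71) and *Serpinh1* (-0.76) did not reach it either, whereas *Adamts2* (-1.62) stayed lower and *P4ha1* (1.32) higher. In the collagen, collagen processing and TGF-beta lists, some genes not called in the members were past 2-fold here. Among them *Plod2* (-1.78), *Col8a1* (-1.67), *Loxl1* (-1.28), *Col15a1* (-1.27), *Tgfbr2* (-1.14) and *Tgfb3* (-1.07) were lower and *Col11a2* (1.61) was higher. Of the bone genes *Bglap* stood at 2.61 (2.08 to 3.17). Those that had been lower in the members were within counting error of equal, with *Alpl* at 0.92 (-0.24 to 2.18), *Dmp1* at 1.02 (-0.36 to 2.55), *Runx2* at -0.56 (-1.40 to 0.26) and *Sost* at 0.92 (-1.88 to 4.39) on 2 and 4 UMIs, and *Ibsp* stood at -0.53 (-0.99 to -0.07). *Chad* kept a large difference (-2.77), *Prelp* (-1.32) and *Ccn2* (-2.39) stayed over 2-fold lower, as did *Ecrg4* (-1.04, -1.95 to -0.18), *Ntn1* (-2.03), *Aff3* (-1.67) and *Anxa8* (-1.13), whereas *Clu* stood at -0.34 (-1.17 to 0.47), and *Angptl7* (-0.86) and *Cilp2* (-0.97) did not reach that limit. *Mgp* (-1.03) and biglycan (*Bgn*, -1.13), which had differed by less than 2-fold in the members, were lower on these spots. So were *Aspn* (-2.24), *Mfap4* (-1.48) and *Postn* (-1.23), which had not been called in the members. No tested gene of the proteoglycan, matricellular and microfibril lists was 2-fold higher here. Other named genes past 2-fold lower on these spots were *Angptl1* (-1.38), *Pi16* (-1.37), *Itgbl1* (-1.27), *Fibin* (-1.24) and *Serpinf1* (-1.11). The slow muscle genes turned, with *Tnni1* at -0.67, *Myh7* at -0.59, *Myl2* at -0.57 and *Tnnt1* at -0.56. *Mb* (-1.33) and *Myh2* (-1.20), also called higher in the members, turned to over 2-fold lower, whereas *Myh1* (2.26) and *Ttn* (1.28) stayed higher. Several muscle genes not called in the members were past 2-fold higher here. Among them were *Pvalb* (2.16), *Ckm* (1.84), *Atp2a1* (1.65), *Tnnc2* (1.43), *Tnnt3* (1.43) and *Actn3* (1.31). *Actn2* (0.48), *Ankrd2* (0.12), *Atp1b1* (-0.15), *Atp5l* (0.66), *Sdhd* (0.62) and *3425401B19Rik* (0.46) no longer reached 2-fold, whereas *Myot* (1.24), *Cox6c* (1.09), *Fxr1* (1.1) and *Art1* (1.14) did, and *Myh4* stood at 2.61. *Cfd* turned from -2.62 to 4.12. The selections share spots and libraries. *Chad*, *Prelp* and *Ccn2* were also lower in the Loaded bone region, where *Chad* stood at 0.127 normalized counts per spot against 0.856 in the Control bone region, *Prelp* at 0.529 against 1.96 and *Ccn2* at 0.305 against 3.90, and in the other spots the log2 ratios were -1.41, -0.81 and -1.63. With only the 15 Control and 52 Loaded members that held more *Thbs4* than *Comp*, *Chad* stood at -2.40, *Prelp* at -2.31, *Angptl7* at -2.40 and *Comp* at -1.51.

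**Figure D5:**
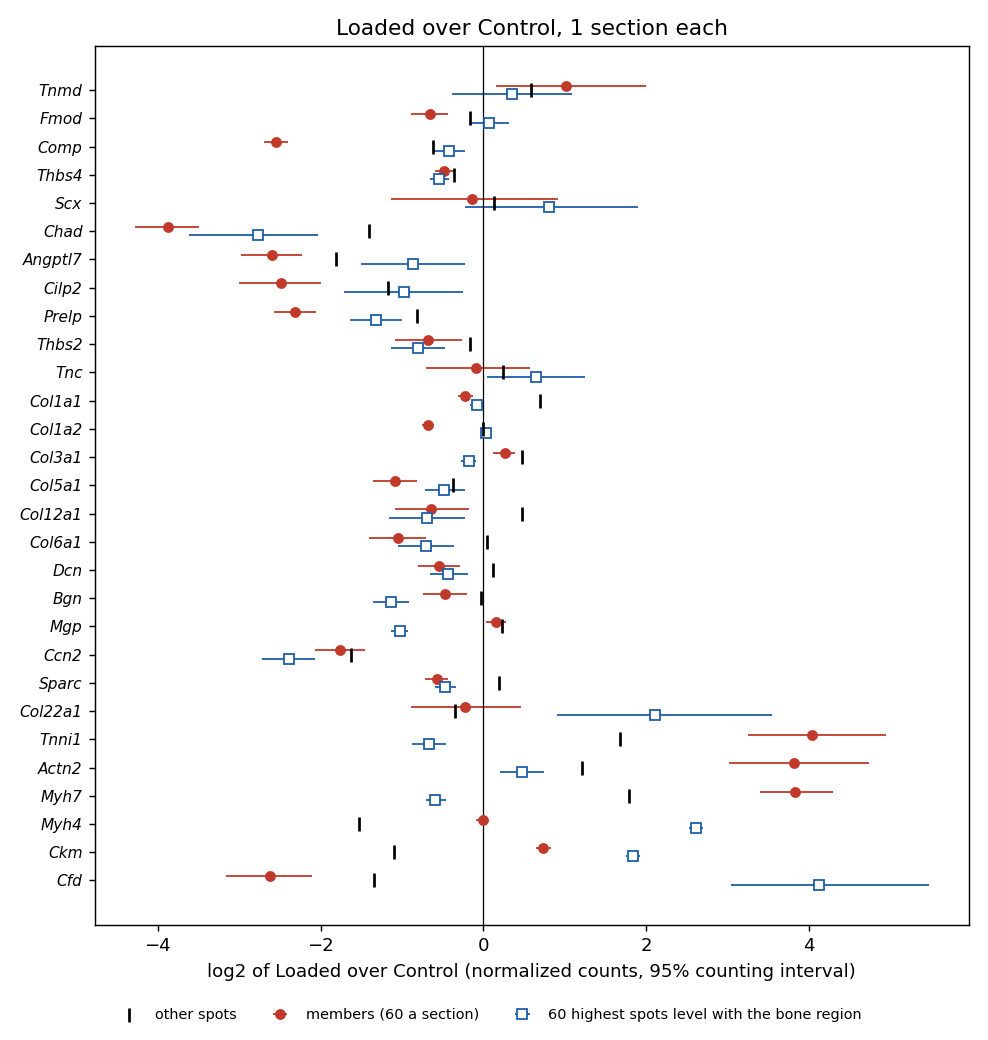
Log2 ratio of Loaded over Control normalized counts (x axis) for 29 genes (y axis), for the members (red circles), for the 60 highest spots level with the bone region (open blue squares) and for the other spots (black ticks), with 95% counting intervals. *Chad*, *Prelp* and *Ccn2* lie below -1 in both selections, *Comp* moves from -2.55 to -0.42, and *Tnni1* and *Cfd* change side.

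With *Tnmd* left out of the ranking 59 of 60 members were the same in either section, with *Fmod* left out 58 (Control) and 55 (Loaded), with *Comp* left out 32 and 52, and with *Thbs4* left out 50 and 40. A gene left out of the ranking was still higher in the members that the other 3 chose. In that order the log2 ratios over the other spots were 2.69 and 3.27 for *Tnmd*, 3.27 and 2.70 for *Fmod*, 2.68 and 1.94 for *Comp*, and 2.35 and 2.33 for *Thbs4* (Control and Loaded). The Control value of *Tnmd* (1.67 to 3.58) rests on 12 UMIs in 7 of 60 members. It does not describe the Control members near cartilage, where *Tnmd* was close to the level of the other spots.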

How the data were processed

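The authors deposited raw UMI counts per gene and spot for all spots under tissue, with spot positions, written by Space Ranger (2.0.0 in the matrix headers, build mm10 in the submitters' processing notes), which also name R 4.3.1 and Seurat. The deposited counts were not normalized. The 19465 genes were matched by identifier to GENCODE M21 (GRCm38; 19451 matched) for coordinates. The bone region came from the barcodes the authors listed. Members and gene lists were chosen with earlier results of these data known.

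Size factors were computed with scran 1.30.0 (R 4.3.3) over all spots with at least 500 UMIs. The authors tested spots with a likelihood ratio test, which was not repeated, since spots of 1 section are not independent samples. Log2 ratios of summed UMIs per summed size factor have exact conditional binomial 95% intervals, sums exact Poisson and shares exact binomial ones (Python 3.11.15, numpy 2.4.6, scipy 1.17.1, pandas 2.3.3, matplotlib 3.10.9). Intervals cover counting error only. A sum of 0 was set to 3 UMIs to give a bound. Genes needed 20 UMIs, in each section or over the members compared. A gene was called at a 2-fold difference. Besides the listed genes, named genes were the 12 highest and 6 lowest in members over others by the smaller ratio (at least 50 UMIs) and the 12 highest and 12 lowest in Loaded over Control whose 4 blocks did not overlap; some of these are not reported here. Results were recomputed with library totals or TMM factors (edgeR 4.0.16), with other limits and member numbers, with each rule gene or block left out, and, after the values were seen, with selections by place and by leading gene. The computation was tested on simulated data.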

Additional observations from a re-analysis of the deposited data

Results flagged for a closer look

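*Ccn4*, a secreted CCN family member of bone and connective tissue, differed in direction between the sections. Its log2 ratio of members over other spots was 2.01 (0.06 to 3.48) in the Control section, on 4 UMIs in members and 40 in the other spots, and -1.74 (-7.08 to 0.83) in the Loaded section, on 1 and 36 UMIs. The difference between the sections was not tested.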

How the results depend on the processing

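No paired analysis was possible because each group has 1 section. With library totals, 897 genes were 2-fold higher and 108 lower in members of both sections, and the medians were 4.25 for other tendon genes in Control and 2.60 (Control) and 1.61 (Loaded) for fibrillar collagens. With TMM factors, 179 genes were lower in Loaded members, and these medians were 3.34 and, in Loaded, 1.38. A 1.5-fold limit called 852 higher and 1341 lower in members, and 1038 higher and 864 lower in Loaded members, and a 3-fold limit 71, 95, 192 and 86. With at least 10 UMIs per gene 1045 were higher and 774 lower in Loaded members, with 50 UMIs 172 and 105, and with 30 members per section 221 were lower. With a muscle share below 10%, 726 were lower in members, 232 higher and 219 lower in Loaded, and the collagen median in Loaded was 1.42. The median of other tendon genes in Control over other spots and in Loaded over Control was 3.13 and -1.40 with 100 members, 3.25 and -1.43 with 1000 UMIs per spot, 2.89 and -1.43 ranked without *Comp*, and 2.46 and -0.91 in the 60 highest spots level with the bone region, where 186 genes were higher in members. Against all other spots under tissue it was 3.28, and the collagen median in Loaded was 0.72. That median was 0.94 ranked without *Fmod*, 1.38 without *Thbs4* and 1.52 for members level with the bone region, where 260 genes were lower in members and 194 in Loaded members. For *Thbs4*-led members 256 were lower. The selections level with the bone region and by leading gene were chosen after seeing the data.

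On spots level with the bone region *Tnni1* turned to -0.67 and *Cfd* to 4.12, while *Atp1b1* at -0.15 (-0.48 to 0.17) and *Col2a1* at 1.92 (-1.42 to 7.54, on 1 and 4 UMIs) were within counting error of 0. For members level with it *Cfd* stood at 1.53 and *Clu* at 0.15. The cause was not tested.

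Leaving out each block in turn gave 288 to 365 genes higher and 246 to 573 lower in members, 397 to 639 higher and 272 to 430 lower in Loaded members, other tendon gene medians of 3.13 to 3.64 (Control), 1.98 to 2.16 (Loaded) and -2.30 to -1.87 (Loaded over Control), and collagen medians of 1.79 to 2.08, 1.11 to 1.33 and -0.72 to -0.48. The 246 came without Control block 1. Depth limits what *Tnmd*, *Scx*, *Mkx* and other sparse genes can show, most of all in the Control members.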

Other observations

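The lists of other cell types were also read in the members. The 9 endothelial genes had 46 UMIs in Control and 181 in Loaded members, 0.0368% and 0.0593% of their UMIs, and in Loaded over Control 3 of 6 measured genes were at least 2-fold higher (*Egfl7*, *Flt1* and *Pecam1*) and *Cldn5*, of tight junctions, was lower, against 11.6% and 7.67% of all genes. The median of these 6 was 1.07 beside 0.06 in the other spots, and with TMM factors 5 were higher. On the 60 highest spots level with the bone region none of these calls held (*Egfl7* -0.18, *Flt1* 0.28, *Pecam1* 0.13 and *Cldn5* 0.84). The macrophage genes took 0.0857% and 0.124%, led by *C1qa* (47 and 141 UMIs), and in Control members *Adgre1*, *Lyve1* and *Lyz2* were at 0. The osteoclast genes took 0.190% and 0.202%, led by *Ctsk* (142 and 328 UMIs), between the shares of the other spots (0.118% and 0.163%) and those of the bone regions (0.387% and 0.484%). The Schwann cell genes had 48 and 97 UMIs, led by the myelin gene *Pmp22* (29 and 54 UMIs), with *Sox10* at 0 in both. The smooth muscle and pericyte list was mostly *Des* (260 of 336 and 1075 of 1211 UMIs), which skeletal muscle also expresses. The proliferation genes had 29 UMIs in Control and 25 in Loaded members, 0.0232% and 0.00819%, with *Ube2c* at 0 in both. None of the osteoclast, smooth muscle, Schwann cell, immediate early or proliferation genes was at least 2-fold higher in members of both sections, except for 2 of 12 immediate early genes with library totals. Over all genes only 3.26% were higher and 4.51% lower in both, so counts of 0 in lists this short say little about these cell types. Of 6 proliferation genes 1 was lower in both, none with library totals and 2 with TMM factors.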
